A study of Mus musculus with 2 samples.

Results

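The nuclear genome encodes nearly all proteins of the ribosome that works inside mitochondria, and their genes carry symbols that begin with Mrpl (large subunit) or Mrps (small subunit). Every protein-coding gene of GENCODE release M21 on mouse build mm10 whose symbol is Mrpl or Mrps followed by a digit was taken. This rule gave 78 members of 21938 protein-coding genes on 21 chromosomes, and the members lay on 17 of them. No measured value was used to choose them. Promoter accessibility, footprints, neighbouring genes and promoter sequence are described here for these 78 genes in mouse calf muscle.

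DNase-seq, which sequences the ends of DNA released by DNase I from open chromatin, was carried out on gastrocnemius, a mostly fast-twitch calf muscle. Both libraries came from male mice of strain B6CASTF1/J, a first-generation hybrid of C57BL/6J and CAST/EiJ, aged 25 days and untreated as far as the labels say. They form 1 group of 2 biological replicates, with no second tissue, age or treatment to compare. The biosample descriptions number different males, but both libraries carry the same donor identifier, so the spread between them may be partly technical. The values are not split by parental allele. The tissue is a mixture of cell types, so a promoter open in fewer nuclei and one less open in each nucleus cannot be told apart.

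The mitochondrial ribosome translates the few proteins that mitochondrial DNA still encodes, which are core subunits of the respiratory chain and the ATP synthase. Its proteins are made in the cytosol from nuclear genes and imported. Some descend from bacterial ribosomal proteins and others were added in the mitochondrial lineage. Skeletal muscle relies on this ribosome because its fibres hold many mitochondria. NRF1 (nuclear respiratory factor 1), the ETS-family factor GABP and YY1 are known regulators of nuclear genes for mitochondrial proteins, and many such genes have promoters rich in CpG dinucleotides without a TATA box.

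Promoter sequences that carry such elements are shown first, for selected matches that overlap a footprint in both libraries. Many other matches did not overlap one. Sequences are from the RefSeq promoter table on GRCm38.p6, the same assembly as mm10, written 5′ to 3′ in the direction of the gene, and they are reference sequence, so a CAST/EiJ allele may differ. The table held 69 of the 78 members, and it did not hold Mrpl13, Mrpl15, Mrpl19, Mrpl38, Mrpl4, Mrpl54, Mrps28, Mrps34 or Mrps35. The window searched runs from 250 bases before to 50 after the start, on both strands, and each printed stretch is the match with up to 30 bases on either side. Capitals mark the match each stretch is shown for. Mrpl22 and Mrpl58 hold a further exact ETS match in lower case, at -53 and -2 from the start.

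The NRF1 element GCGCATGCG was found in 7 members, listed from the highest to the lowest mean promoter signal. The first 3 were named by rule and the other 4 were added after their values were seen. Each of the 7 matches shown lay wholly inside a footprint in both libraries, while a further match at Mrpl32, at -23, did not. With overlapping matches merged into sites, 7 of 8 member sites (87.5%) lay wholly inside. The share was 80.6% for NRF1 sites in all coding promoters open in both libraries. Mrpl39, Mrpl32 and Mrpl9 read as the element on both strands, shifted by 1 base. The match of Mrps18b lies past the 5′ end of Ppp1r10, a gene that starts 45 bp away on the opposite strand. That match cannot be assigned to one of the genes.
Mrpl17 (chr7:105811060-105811128, minus strand): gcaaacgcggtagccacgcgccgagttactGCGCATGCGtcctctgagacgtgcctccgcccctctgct
Mrps18b (chr17:35916626-35916690, minus strand): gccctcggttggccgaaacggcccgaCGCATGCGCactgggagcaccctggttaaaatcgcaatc
Mrpl39 (chr16:84735330-84735398, minus strand): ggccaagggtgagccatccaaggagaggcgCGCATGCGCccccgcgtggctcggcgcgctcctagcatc
Mrpl32 (chr13:14613085-14613153, minus strand): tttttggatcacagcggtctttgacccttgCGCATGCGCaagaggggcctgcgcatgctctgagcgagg
Mrpl9 (chr3:94443278-94443346, plus strand): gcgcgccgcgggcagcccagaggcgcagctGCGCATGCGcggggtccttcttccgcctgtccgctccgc
Mrpl22 (chr11:58171601-58171669, plus strand): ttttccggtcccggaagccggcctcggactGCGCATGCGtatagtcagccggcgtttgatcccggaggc
Mrpl10 (chr11:97041417-97041485, plus strand): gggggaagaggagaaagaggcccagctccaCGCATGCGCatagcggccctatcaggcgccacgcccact

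The ETS element CCGGAAG was found in 26 members. The 5 below, chosen after the values were seen, are those in which the whole match lay inside a footprint in both libraries. They were 5 of 31 member sites (16.1%), against 11.0% of ETS sites in all coding promoters open in both libraries.
Mrpl43 (chr19:45006418-45006484, minus strand): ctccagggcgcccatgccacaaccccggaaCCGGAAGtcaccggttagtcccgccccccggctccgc
Mrps16 (chr14:20393528-20393594, minus strand): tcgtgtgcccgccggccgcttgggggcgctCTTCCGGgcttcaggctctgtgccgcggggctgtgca
Mrpl58 (chr11:115403705-115403771, plus strand): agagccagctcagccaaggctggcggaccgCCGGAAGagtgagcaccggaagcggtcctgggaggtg
Mrpl52 (chr14:54426881-54426938, plus strand): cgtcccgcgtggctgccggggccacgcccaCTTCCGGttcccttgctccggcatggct
Mrpl3 (chr9:105053219-105053285, plus strand): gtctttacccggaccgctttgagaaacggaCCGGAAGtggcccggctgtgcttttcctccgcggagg

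The cyclic AMP response element (CRE) TGACGTCA was found in Mrpl49 and Mrpl16. Both matches lay wholly inside footprints, of 31 bp in both libraries at Mrpl49 and of 52 and 20 bp at Mrpl16. Among CRE sites in all coding promoters open in both libraries, 59.3% lay wholly inside. The match of Mrpl49 lies past the 5′ end of Fau, a gene that starts 59 bp away on the opposite strand. That match cannot be assigned to one of the genes.
Mrpl49 (chr19:6057872-6057939, minus strand): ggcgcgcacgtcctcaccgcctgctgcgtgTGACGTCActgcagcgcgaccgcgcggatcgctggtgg
Mrpl16 (chr19:11770336-11770403, plus strand): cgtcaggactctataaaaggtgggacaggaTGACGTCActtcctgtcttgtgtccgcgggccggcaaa

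The YY1 element AAGATGGC was found in 12 members. The match shown lies in the promoter that Mrps11 shares with Mrpl46, read on the opposite strand. It was picked after the values were seen, because it overlapped a footprint by 8 bases in replicate 1 and 7 in replicate 2. Of 12 member sites, 3 overlapped a footprint in both libraries and 0 lay wholly inside one in both. The share wholly inside was 5.67% of YY1 sites in all coding promoters open in both libraries.
Mrps11 (chr7:78782994-78783061, plus strand): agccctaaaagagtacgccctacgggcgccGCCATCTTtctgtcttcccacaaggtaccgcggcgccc

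All 78 members had an accessible promoter in both libraries. A promoter peak was a peak of the longer list of a library that overlapped the 1 kb on either side of any annotated start of the gene. Such a peak was found for 78 of 78 members in replicate 1, against 66.5% of all coding genes, and for 78 of 78 in replicate 2, against 64.2%. In both libraries together the background was 63.0%. The Wilson 95% interval for 78 of 78 reaches down to 95.3%, and it covers counting error only. It treats genes as independent draws, although the 78 are all the genes of the rule and Mrpl46 and Mrps11 share a peak. All 78 also had a peak in the stricter list of each library, against 57.7% of all coding genes with one in both. The 2 libraries held 97499 and 61664 peaks.

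The strength of a promoter was taken as the signal of its strongest promoter peak, an authors' value that rose in whole steps of 0.00591 in replicate 1 and 0.00854 in replicate 2. The steps are read here as 1 tag each, with the signal in tags per 1000000, which puts the libraries at 169 and 117 times 1000000 tags. For the members the median was 4.50 and 4.29 in replicates 1 and 2 (mean of both medians 4.40 ± 0.149, SD, n = 2). Over all coding genes with a promoter peak it was 3.57 and 3.43. The median member stood at percentile 59.5 of the open coding promoters in replicate 1 and 62.4 in replicate 2. Above the 75th percentile of open promoters stood 24 members in either library. The members were thus open throughout, at strengths spread over most of the range of coding promoters. With all promoter peaks of a gene summed, the median percentile was 51.3, close to the middle.

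**Figure D1:**
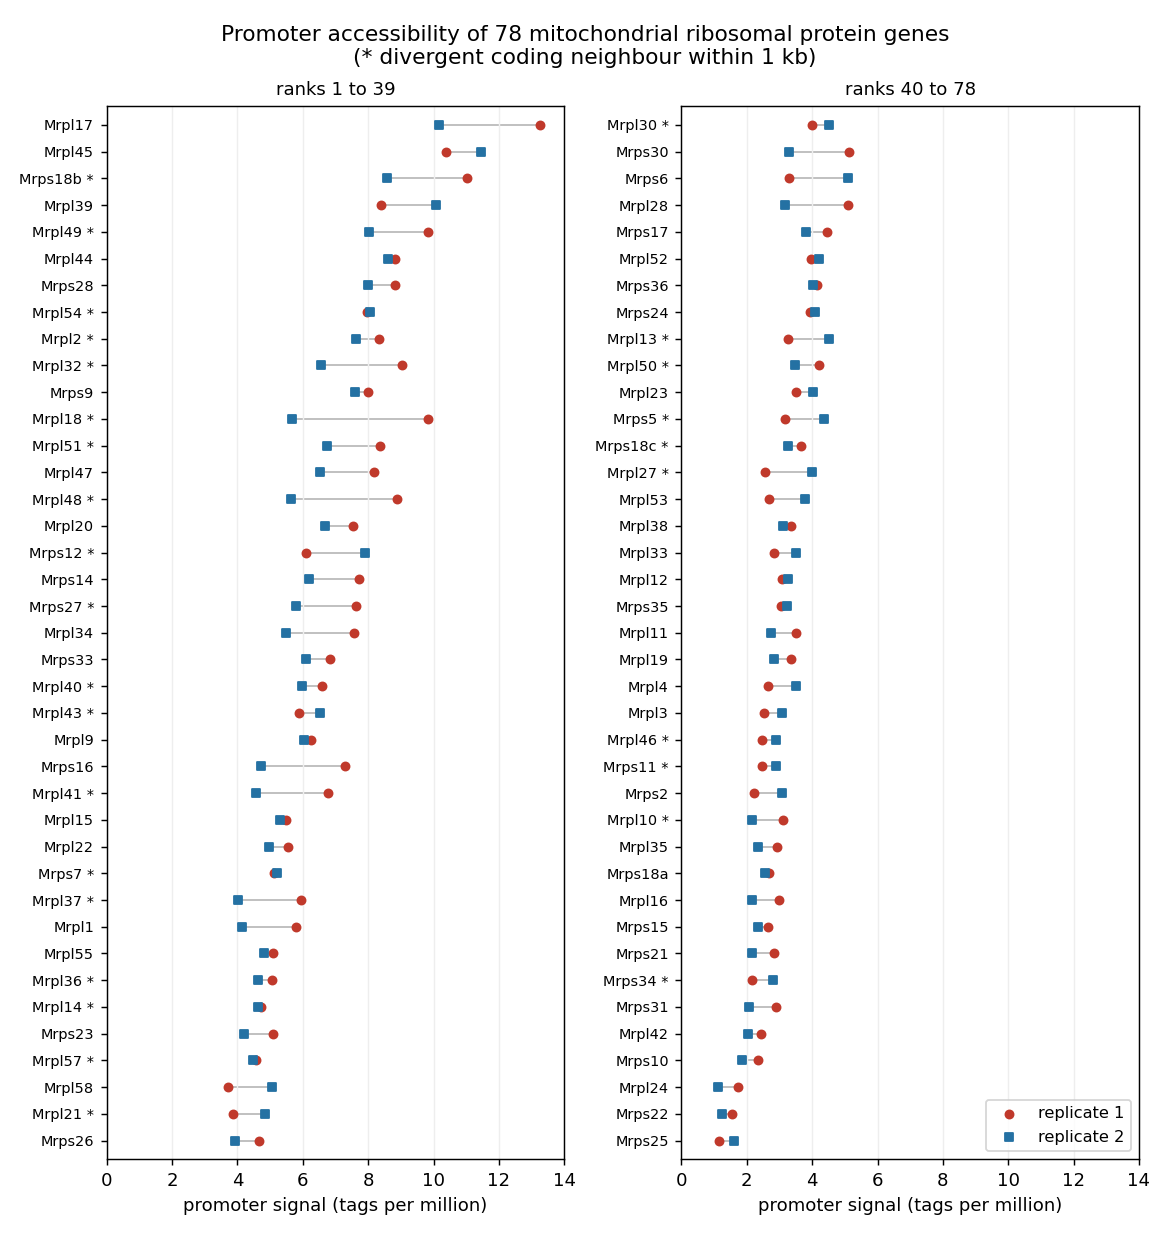
Promoter signal of each of the 78 members in tags per 1000000 (x axis), ranked by the mean of both libraries, with replicate 1 as circles and replicate 2 as squares. Mrpl17 and Mrpl45 lead with values above 10 in both libraries, and Mrpl24, Mrps22 and Mrps25 are last with values below 2.

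The strongest promoter was that of Mrpl17 (chr7:105803206-105811099, minus strand), a bacterial-type protein of the large subunit, with signals of 13.2 in replicate 1 and 10.2 in replicate 2, from 2239 and 1191 tags. Mrpl45 (chr11:97315716-97329920, plus strand), a mitochondrion-specific large subunit protein at the exit of the peptide tunnel, had 10.4 and 11.5. The order of these 2 genes was opposite in the 2 libraries. Mrps18b (chr17:35910379-35916389, minus strand), a small subunit protein, had 11.03 and 8.57. The percentiles of these 3 genes among open coding promoters were 99.2 and 98.8, 95.3 and 99.5, and 96.7 and 96.1.

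Mrpl39, related to threonyl-tRNA synthetases, had signals of 8.38 and 10.1 in replicates 1 and 2. Mrpl49 had 9.84 and 8.02, and Mrpl44, which has a fold like that of ribonuclease III, had 8.82 and 8.60. The signal of Mrps28 was 8.82 and 8.0. Mrpl54 had 7.96 and 8.05 and Mrpl2, a core large subunit protein next to the catalytic centre, had 8.33 and 7.61. Mrpl32, a large subunit protein that matures through cleavage by the m-AAA protease, had 9.04 and 6.55. Most neighbours in this order overlapped in their 2 values, while Mrpl54 lay below both values of Mrpl39 and of Mrpl44. Of the 10 strongest members, 8 belong to the large subunit and 2, Mrps18b and Mrps28, to the small subunit. The large subunit holds 51 of all 78 members, so a majority of large subunit genes is no trait of the strongest.

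At the other end, Mrps25 (chr6:92169525-92184033, minus strand) had signals of 1.17 and 1.60, from 197 and 187 tags. Mrps22, a small subunit protein mutated in a human mitochondrial disease, had 1.54 and 1.26. Mrpl24 had 1.73 and 1.13. These 3 promoters fell below percentile 30 in both libraries and did not overlap the next members upward. Mrps10 followed with 2.34 and 1.86, Mrpl42 with 2.43 and 2.03 and Mrps31 with 2.89 and 2.06. Of the 6 weakest, 4 belong to the small subunit, which holds 26 of all 78 members. With so few genes this count is a description only. The ratio of the highest to the lowest mean signal among members was 8.48.

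Related gene sets, the ribosomal proteins of the cytosol and the nuclear genes of the respiratory chain and ATP synthase, were measured in the same way. All 77 cytosolic ribosomal protein genes and 81 of 85 annotated respiratory chain entries had a promoter peak in both libraries. Among the 4 without one, Cox4i2, Cox7b2 and Cox8c are known as tissue-restricted isoforms. The remaining one is a second, overlapping annotation entry of Atp5o, whose other entry had signals of 4.07 and 3.49, so no lack of an open promoter at Atp5o is meant. The median signal was 5.89 and 5.32 for the cytosolic ribosomal genes and 5.51 and 4.50 for the respiratory chain genes. Both medians were above those of the members in each library. In replicate 2 the respiratory chain median exceeded that of the members by no more than the member medians differed between the libraries. No test was made between the sets.

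**Figure D2:**
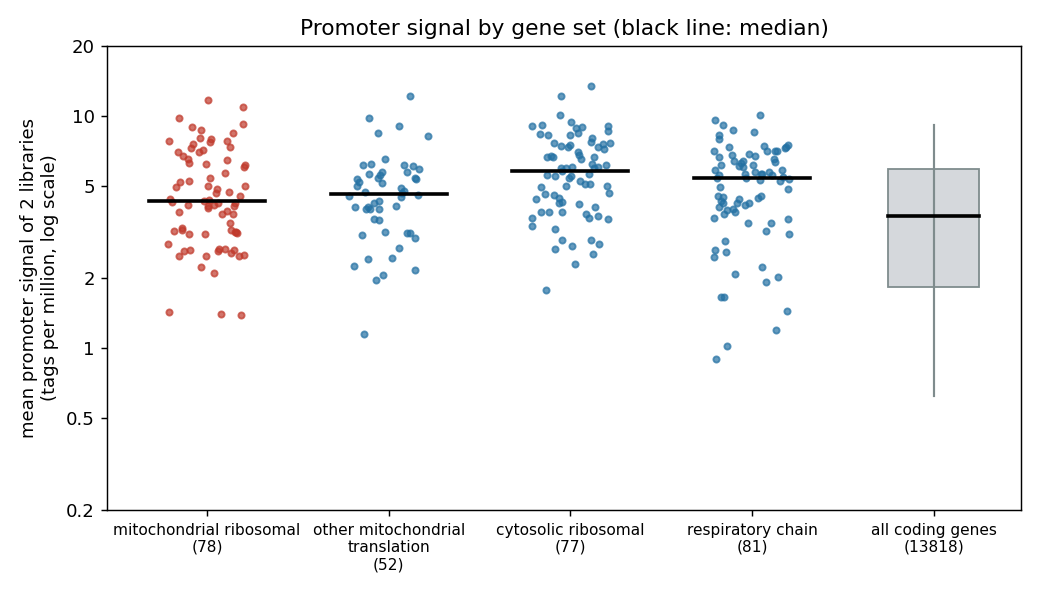
Mean promoter signal of both libraries in tags per 1000000 (y axis, log scale) for genes with a promoter peak in both, with each point a gene and the black line the median; the box for all coding genes spans the quartiles and its line the 5th to 95th percentile. The median of the 78 members (4.28) lies above that of all coding genes (3.70) and below those of the cytosolic ribosomal (5.81) and respiratory chain genes (5.38).

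The accessible site of a member was mostly a single peak centred on the start. The centre of the strongest peak lay within 100 bp of an annotated start for 70 of 78 members in replicate 1 (89.7%) and 66 in replicate 2 (84.6%). Over all coding genes with a promoter peak the shares were 66.7% and 63.0%. The like sets were nearer to the members, with 83.1% and 75.3% for the cytosolic ribosomal genes and 86.4% and 76.5% for the respiratory chain genes. More than 1 promoter peak was found for 20 members in replicate 1 (25.6%) and 14 in replicate 2 (17.9%), against 57.9% and 49.6% of all open coding genes. Open coding genes had a median of 5 annotated starts and members a median of 4, so the searched length differed slightly. The median width of the strongest peak was 220 bp in replicate 1 and 260 bp in replicate 2, against 220 and 270 bp for all coding genes.

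Among the exceptions, 11 members had 2 or more promoter peaks in both libraries. Mrpl48, a large subunit gene with 10 annotated starts, had 5 and 4 peaks, and Mrpl40 had 4 and 3. Mrpl17, Mrpl51 and Mrpl41 had 2 peaks in each library. At Mrps18b the strongest peak was centred at -431.5 bp from the nearest annotated start in replicate 1 and -441.5 bp in replicate 2, beyond the start of its divergent neighbour. Mrps12 was similar, with centres at -400.5 and -290.5 bp. The peaks of these 2 genes lay on the side of the neighbouring gene, and their signal cannot be assigned to one of the genes.

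Footprints are short stretches protected from DNase I inside open chromatin, usually read as sites covered by a protein. A footprint within 1 kb of a start was found for 78 of 78 members in replicate 1 (64.9% of all coding genes) and for 78 of 78 in replicate 2 (62.7%). Both libraries held one at 78 members, against 61.5% of all coding genes. The median was 6 footprints per member in either library. All coding genes had a median of 4, and coding genes with a promoter peak had 7, so an open promoter of a member held no more footprints than an open promoter in general. The lowest count was 1 in replicate 1, at Mrps25, which had 3 in replicate 2. In replicate 2 the lowest was 2, at Mrpl16.

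Mrpl48 had the most footprints, 25 in replicate 1 and 28 in replicate 2. Mrpl40 had 17 and 19, Mrps18b 17 and 18, and Mrpl33, a small protein of the large subunit, 18 and 16. Mrpl34 had 10 and 17 and Mrps12 had 13 and 12. Of these 6 genes, 4 also had more than 1 promoter peak in a library. The mean signal and the mean number of footprints of the members had a Spearman coefficient of 0.538 (n = 78 genes), and the value over 13818 coding genes was 0.514. Both measures come from the same reads, so this coefficient is a description only.

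The footprints of members were concentrated at the start. Of 530 footprints near members in replicate 1, 66.6% had their centre within 100 bp of a start, and of 550 in replicate 2, 65.8% did. Over all coding genes the shares were 49.2% and 47.9%. Of the member footprints, 64.0% in replicate 1 and 64.4% in replicate 2 overlapped a footprint of the other library by at least 1 bp. The shares for all coding genes were 53.0% and 54.3%. The footprint lists hold 243784 and 171389 entries with no rank, so the strength of a footprint could not be compared.

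**Figure D3:**
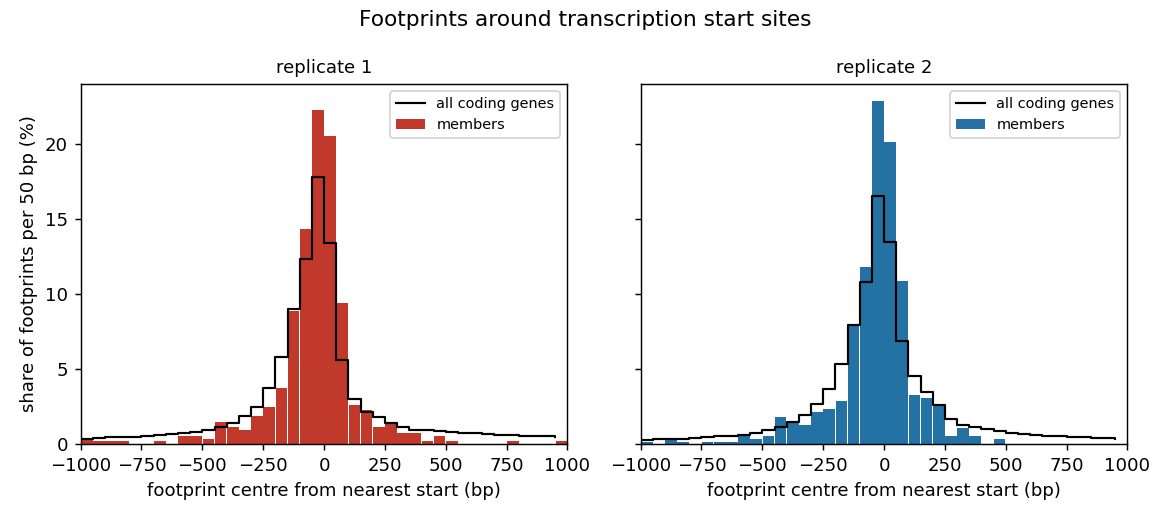
Share of footprints per 50 bp (y axis, %) by distance of the footprint centre from the nearest annotated start (x axis, bp), with bars for the members and the line for all coding genes, in replicate 1 (left) and replicate 2 (right). The bars exceed the line within 100 bp on both sides of the start and are mostly below it farther out.

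Many members share their promoter with another gene. A coding gene that starts within 1 kb on the opposite strand and is transcribed away, called here a divergent neighbour, was found for 29 of 78 members (37.2%). The background over all coding genes was 11.0%. The share was 35.3% of respiratory chain genes (30 of 85) and 19.5% of cytosolic ribosomal genes (15 of 77). Over the 29 members the starts lay 26 to 935 bp apart with a median of 59 bp, and 21 members were within 100 bp of their neighbour. They form 28 distinct pairs, since 2 members are each other's neighbour. The median over all divergent coding genes was 106 bp. A further 3 members, Mrpl53, Mrpl55 and Mrps21, had a noncoding divergent neighbour only, and the starts of 4 others overlapped an opposite coding gene head to head. Mrps26 overlapped a noncoding antisense gene only.

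Mrpl46 and Mrps11, a large and a small subunit gene whose starts are 30 bp apart on chr7, are divergent from each other. They share 1 peak, with a signal of 2.47 in replicate 1 and 2.89 in replicate 2, so the 78 members had 77 distinct strongest peaks. Several other neighbours, picked for this function after their values were seen, act in mitochondria. Mrpl43 is divergent from Twnk, the helicase of mitochondrial DNA replication, and both take their value from a peak of 5.89 and 6.53. Mrps12, a small subunit protein of the decoding centre, is paired with Sars2, the mitochondrial seryl-tRNA synthetase, at 172 bp. Mrpl36 is paired with Ndufs6, a subunit of respiratory complex I, at 51 bp, and Mrps27 with Ptcd2, a mitochondrial RNA-processing protein, at 81 bp.

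The strongest members with a divergent neighbour were paired mostly with genes of other functions. Mrps18b is paired with Ppp1r10, a nuclear regulator of protein phosphatase, at 45 bp. Mrpl49 is paired with Fau, which encodes a ribosomal protein of the cytosol fused to a ubiquitin-like domain, at 59 bp. Mrpl54 is paired with Apba3 and Mrpl2 with Klc4, a kinesin light chain. Mrpl32 is paired with Psma2, a proteasome subunit, and Mrpl18 with Tcp1, a subunit of the cytosolic chaperonin. Mrpl51 is paired with Ncapd2, a condensin subunit, and Mrpl48 with Rab6a, a small GTPase of Golgi transport. Since DNase-seq does not give the direction of transcription, the peak between such starts counts for both genes.

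Members with a divergent neighbour had the higher median signal. It was 5.12 in replicate 1 and 4.63 in replicate 2 for the 29, and 3.95 and 3.92 for the other 49. They also had more footprints, with medians of 8 and 8 against 5 and 5. Over all coding genes with a promoter peak the median signals were 5.72 and 4.71 with such a neighbour and 3.15 and 3.13 without. Their median footprint counts were 8 and 9 with such a neighbour and 6 and 7 without. The differences between both kinds of member, in signal and in footprints, therefore had the direction of those over all genes. The 6 strongest members without a divergent neighbour were Mrpl17, Mrpl45, Mrpl39, Mrpl44, Mrps28 and Mrps9, the last with signals of 7.99 and 7.59. Of these, Mrpl44 overlaps the start of Wdfy1 head to head.

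No member promoter differed by more than 2-fold between the libraries. For 77 members the promoter peaks of the libraries overlapped, and the ratio of replicate 1 to replicate 2 was centred on the median over all 13720 coding genes with overlapping peaks, which was 0.12 on the log2 scale. After centring, 0 of the 77 were beyond 2-fold, against 2.11% of all such genes, or 290. At that share few of 77 genes would be beyond 2-fold, so the member count is near the background. It was also 0 of 77 for the cytosolic ribosomal genes and was 3 of 81 for the respiratory chain genes. Without the centring the member count was also 0. By the sign of the centred ratio, 40 members were higher in replicate 1 and 37 in replicate 2, and by the ratio as deposited 50 and 27. The signals of the libraries across the 78 members had a Spearman coefficient of 0.893, as a description of genes measured in the same libraries.

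The largest centred difference was at Mrpl27, a bacterial-type large subunit gene, with signals of 2.57 in replicate 1 and 4.01 in replicate 2 and a centred log2 ratio of -0.76. Mrps6 had 3.28 and 5.11, also a ratio of -0.76. Mrpl18 differed in the opposite direction, with 9.83 and 5.66 and a ratio of 0.68. Mrpl53 followed with a centred ratio of -0.62, Mrpl13 with -0.59 and Mrps2 with -0.59. Without the centring, Mrpl18 (0.80), Mrpl28 (0.69) and Mrpl48 (0.65) had the largest log2 ratios, the last 2 named after their values were seen. Mrpl34 was the member without overlapping peaks: its peak was centred at -188.5 bp in replicate 1, with a width of 60 bp and a signal of 7.58, and at -388.5 bp in replicate 2, with a width of 220 bp and a signal of 5.49. With 1 group of 2 libraries, these ratios carry no test.

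**Figure D4:**
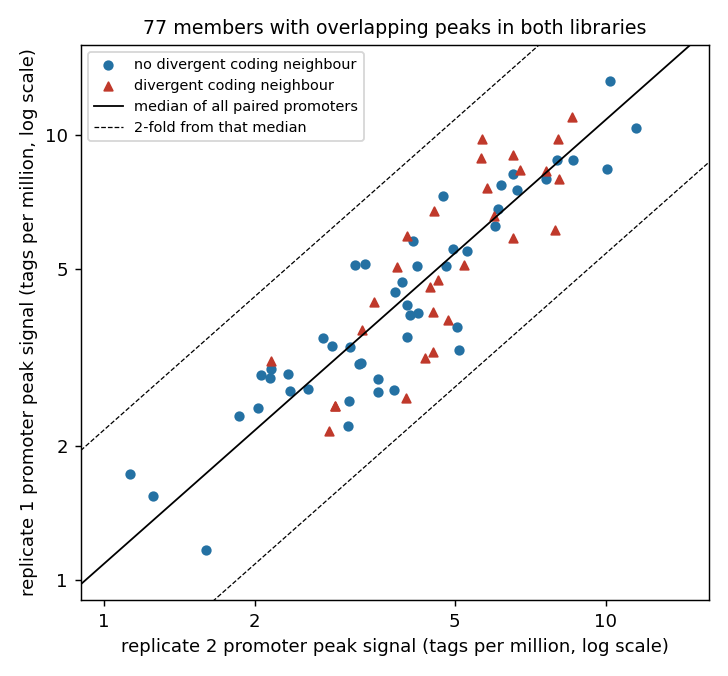
Signal of the overlapping promoter peaks in replicate 1 (y axis) against replicate 2 (x axis), both in tags per 1000000 on log scales, for 77 members, with triangles for those with a divergent coding neighbour. The solid line is the median ratio of all coding genes and the dashed lines are 2-fold from it; all 77 points lie between the dashed lines.

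By subunit, the 51 genes of the large subunit had a median signal of 5.07 in replicate 1 and 4.53 in replicate 2, and the 26 of the small subunit had 3.8 and 4.0. Assignment follows the structure of the ribosome, so Mrps30 and Mrps18a, whose proteins sit in the large subunit, were counted there. Mrps36, now known as a component of the oxoglutarate dehydrogenase complex, was kept apart and had 4.16 and 4.02. The 46 genes of bacterial-type proteins had medians of 3.97 and 4.45 and the 31 of mitochondrion-specific proteins 5.09 and 4.22. The order by origin was thus opposite in the 2 libraries, while the order by subunit was the same in both. A divergent neighbour was found for 41.2% of large and 30.8% of small subunit genes.

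Promoter sequence was compared for the 69 members in the RefSeq table, against 16522 coding genes in it. The ratio of observed to expected CpG had a median of 0.82 in the member windows, 0.588 in all and 0.742 in those of genes open in both libraries. It exceeded 0.6 in 90.7% of member windows, in 49.1% of all windows and in 67.8% of windows of open genes. The median G and C content was 58.7%, against 57.0% in all windows and 60.7% in those of open genes. The TATA element TATAAA was found in 5 members (7.25%), in 14.3% of all coding promoters, in 8.59% of those open in both libraries and in 7.44% of those that were also rich in CpG.

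The ETS, YY1 and NRF1 elements were found in a larger share of members than of coding promoters in general. The ETS element CCGGAAG was present in 26 of 69 (37.7%), against 13.4% of all promoters and 22.2% of the 8162 promoters that were open in both libraries and rich in CpG (ratio above 0.6). The YY1 element AAGATGGC was present in 12 (17.4%), against 3.64% and 5.89%. The NRF1 element GCGCATGCG was present in 7 (10.1%), against 2.74% and 5.01%. At least 1 of these 3 elements was found in 38 members (55.1%) and in 18.2% of all promoters. No test over the members was made.

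Part of the members with an element also had a divergent neighbour. YY1 matches were found in 8 of 26 members with such a neighbour (30.8%) and in 4 of 43 without (9.30%), against 8.02% and 4.22% of open coding genes of the same kinds. ETS matches were found in 11 of 26 (42.3%) and 15 of 43 (34.9%), against 30.5% and 16.5%. NRF1 matches were found in 3 of 26 (11.5%) and 4 of 43 (9.30%), against 5.42% and 3.68%. For each of the 3 elements the member share was above that of open genes both with and without a divergent neighbour.

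The other elements were found in members at shares near or below those of all promoters. The CRE was present in 2 members (2.90%) against 2.64%, and the palindrome TCTCGCGAG in 1 (1.45%), Mrpl57, against 1.1%. The CCAAT box, bound by NF-Y, was present in 27 (39.1%) against 42.1%. The GC box GGGCGGGG, bound by SP factors, was present in 16 (23.2%) against 27.1%, and the open CpG-rich promoters held it in 43.0%. The E-box CACGTG was present in 5 (7.25%) against 9.18%. The muscle E-box CAGCTG, bound by MyoD-family factors, was present in 11 (15.9%) against 17.7%. The element CTACAATTC, bound by ZNF143, was present in 0 members against 0.587%. The element TCAAGGTCA of the oestrogen-related receptors was in 0 members against 0.387%, and the MEF2 element CTAAAAATA in 0 against 0.484%.

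**Figure D5:**
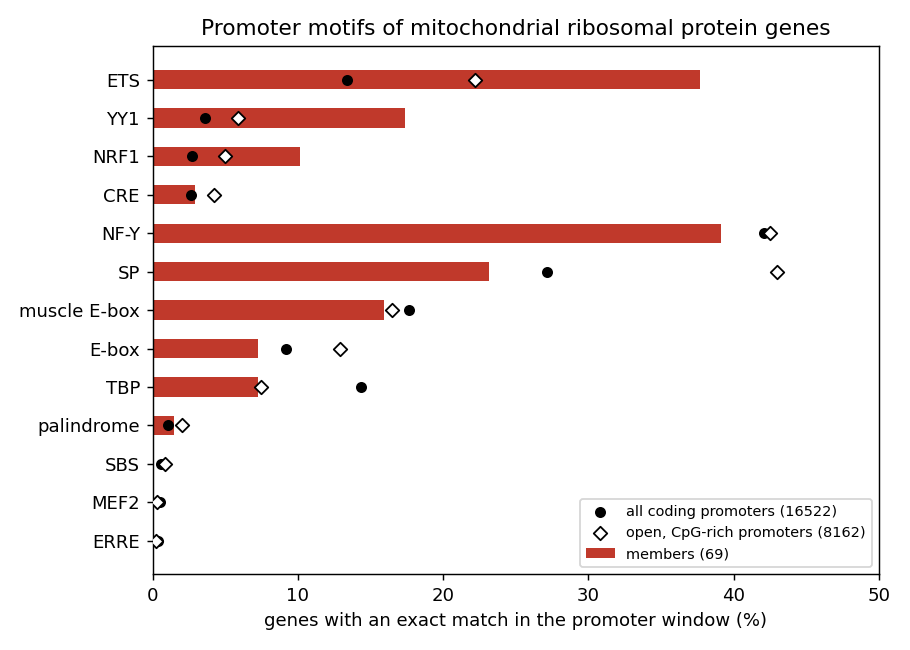
Share of genes with an exact match in the promoter window (x axis, %) for 13 elements, with bars for the 69 members, filled circles for all 16522 coding promoters and diamonds for the 8162 open, CpG-rich promoters; NF-Y stands for the CCAAT box, TBP for TATAAA, SBS for the ZNF143 element and ERRE for that of the oestrogen-related receptors. The ETS, YY1 and NRF1 bars reach past both markers, and the SP bar ends before both.

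Matches differed in how often they coincided with footprints. Overlapping matches of an element were merged into sites, and a site was counted when it shared at least 1 bp with a footprint in both libraries. For NRF1 this held for 7 of 8 member sites (87.5%) and for 89.0% of the sites in all open promoters. For ETS it held for 14 of 31 (45.2%) against 32%, and for YY1 for 3 of 12 (25.0%) against 27.8%. Both CRE sites and 14 of 21 SP sites (66.7%) were in footprints, against 77.9% and 58.0%. NRF1 sites of members thus lay in footprints about as often as NRF1 sites of open promoters did.

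At Mrpl17, the strongest member, the NRF1 match began 11 bases before the RefSeq start and lay inside footprints of 20 and 19 bp. A second, upstream element in that promoter, an ETS match at -237, shared 3 bases with a footprint in each library. The NRF1 matches printed above lay in footprints of 20 and 28 bp at Mrps18b, 27 and 28 bp at Mrpl39, 29 and 29 bp at Mrpl32, 44 and 39 bp at Mrpl9, 21 and 27 bp at Mrpl22, and 21 and 23 bp at Mrpl10. The median footprint near members was 11 bp wide in replicate 1 and 10 bp in replicate 2. A footprint that holds a whole match of 9 bases has to be at least that wide, so the widths are not compared.

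The ETS matches of the 2 next strongest members named for this element, Mrpl18 and Mrpl34, shared 6 bases with a footprint in either library and 4 and 5 bases. Those of Mrpl43 and Mrpl3 lay inside footprints of 40 and 42 bp and of 37 and 39 bp. The YY1 match of Mrpl37 began 26 bases after the start, and that of Mrpl36 touched a footprint with 1 base in each library. The median position of the matches in members was -86 for NRF1, -17 for ETS and +15 for YY1. Over all coding promoters the medians were -49, -36 and -2, in the same order. The NRF1 value for members counts the overlapping matches on both strands at Mrpl39, Mrpl32 and Mrpl9 separately, as 11 matches at 8 sites. Because a footprint has no factor attached to it, a match inside one describes position only.

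Other nuclear genes of mitochondrial translation were also open. The 5 mitoribosomal genes with other names all had a promoter peak in both libraries, with median signals of 4.64 and 3.95, led by Aurkaip1 (5.96 and 4.83) and Chchd1 (4.36 and 5.39). All 24 assembly factors did, with medians of 4.38 and 4.23, led by the GTPases Noa1 (10.4 and 9.03) and Mtg1 (8.25 and 9.84). All 15 translation factors did, with medians of 4.52 and 4.56, led by the release factor Mtrf1l (8.56 and 7.86) and by Guf1 (5.58 and 6.64). All 8 genes of mitochondrial DNA maintenance and transcription did, with medians of 5.85 and 4.99, led by the polymerase Polg (10.3 and 13.9) and the transcription factor Tfb2m (9.95 and 6.98). In all, 52 of 52 such genes were open, and 16 of them (30.8%) had a divergent neighbour. The medians of the assembly and translation factors were close to those of the members.

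The labelled tissue was checked against markers. All 7 genes of the muscle fibre list (Acta1, Ckm, Mylpf, Actn3, Mybpc2, Tnnt3 and Ryr1) had a promoter peak in both libraries, against 63.0% of all coding genes. Their mean signals lay between 1.83 and 6.12. Some strongest peaks lay far from the start, at -721.5 and -761.5 bp for Actn3 and -634.5 bp in both libraries for Mybpc2. That of Ryr1 lay at -1.5 and 11 bp. The single satellite cell and fibro-adipogenic markers and both endothelial markers also had one, at mean signals between 0.675 and 2.95, which overlap those of the fibre markers. Neither library had a promoter peak at the leukocyte (Ptprc, Cd68), adipocyte (Adipoq) or hepatocyte (Alb, Ttr) markers. The neuronal marker Snap25 had signals of 1.75 and 2.00, and its mean of 1.88 lay above that of the fibre marker Tnnt3 (1.83). A promoter peak alone thus did not separate the fibre markers from all others. The part of other cell types in the member values was not tested.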

How the data were processed

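DNase-seq peaks, footprints and per-position false discovery rates were used for 2 libraries of mouse gastrocnemius, on mm10 per the labels. The peak signal is the authors' deposited value. It rose in whole steps (within 0.1 of a whole number for 100% of peaks), and reading it as tags per 1000000 comes from the values. The deposited per-position q-value (all below 0.05) was used only to check that members were covered. The deposited footprint lists hold positions with a constant column. No aligner or caller is named here: not given in the sources used.

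Starts came from GENCODE M21. Windows were 1 kb on either side, and an overlap was 1 bp or more. The ratio between libraries used the overlapping pair of promoter peaks with the highest mean signal, which at 76 of 77 members was the strongest peak of each library. Scripts used Python 3.11.15, pandas 2.3.3, samtools 1.23.1 and bedtools 2.31.1, and were tested on simulated data. The members, the gene lists, the 13 elements and the rules for named genes (the 10 strongest and 6 weakest members, the 6 largest ratios, the 6 with most footprints, the strongest with and without a divergent neighbour, the strongest with several peaks, and the 3 strongest per element in footprints) were chosen with earlier results of these data known. There is 1 group, so no test between groups was made.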

Additional observations from a re-analysis of the deposited data

How the results depend on the processing

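Of 53 alternative values for 12 results, 44 stayed within the spread between libraries or, for counts, within 1.5 times. Some of the 44 could not have moved, so their number does not measure robustness. Leaving out 1 library always keeps a median within that spread. It also cannot change the counts of 78 members open and 78 with a footprint. The mismatch was allowed only in elements of 8 or more bases, so the ETS count was fixed as well. Narrower and wider windows, the stricter peak list, the stronger 50% of peaks and peak centres all left 78 members open in both libraries, and the 5′ end alone left 76. Across these settings 55.8% to 65.2% of all coding genes were open in both. The median percentile was 57.7 with the stricter list, 55.7 with the stronger 50% of peaks and 51.3 with all peaks of a gene summed, where the median signal was 4.63 (4.51 for all coding genes). The median number of footprints was 6.75 in the wider windows and 4.50 for footprints wholly inside peaks. With 1 mismatch allowed, 20 members held an NRF1 match and 27 a YY1 match. The share over all coding promoters was not computed for that setting, so these counts have no background beside them. Matches in footprints of both libraries numbered 55 of 145, and 35 lay wholly inside. Leaving out one library gave 63 to 75 matches in footprints, a median signal of 4.29 to 4.50, a median percentile of 59.5 to 62.4, 78 members open, 78 with a footprint and a median of 6 footprints. Divergent neighbours numbered 28 within 500 or 300 bp, against 10.1% and 9.33% of all coding genes. With genes of any type they numbered 32, and the share of all coding genes rose from 11.0% to 18.3%. No paired analysis was possible because there is a single group. Among the strongest promoter peaks of the members, the lowest count was 132 tags, at Mrpl24 in replicate 2, which limits the precision at that gene.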
